A study of Rattus norvegicus with 12 samples.

Results

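The genes described here run renal vitamin D metabolism and phosphate transport: Cyp27b1, Cyp24a1, Vdr, Slc34a1, Slc34a3 and Slc20a2. They were taken by name from the array's own annotation, which gave 8 probes for the 6 genes, out of 41012 probes for 35529 genes on the array. Cyp24a1 and Slc34a1 each had 2 probes, of which the brighter on average stood for the gene in the fit. All 8 probes were well above background on all 12 arrays. The set was chosen by gene name and, among measured values, by the levels of Cyp24a1 on these arrays at 300 and 600 mg/kg against control, so Cyp24a1 is given as a description, with no test.

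The kidney turns circulating 25-hydroxyvitamin D into the active hormone calcitriol through Cyp27b1, the 1-alpha-hydroxylase, and breaks both forms down through Cyp24a1, the 24-hydroxylase. Calcitriol acts through the nuclear receptor Vdr, and Cyp24a1 is a classical target gene of that receptor, whereas Cyp27b1 is held down by calcitriol and raised by parathyroid hormone. Filtered phosphate is taken back in the proximal tubule by the sodium-phosphate carriers of the brush border, NaPi-IIa (Slc34a1), NaPi-IIc (Slc34a3) and PiT-2 (Slc20a2).

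Cephaloridine is a cephalosporin antibiotic that is taken up by the proximal tubule and is toxic to it at high doses. Male Fisher 344 rats aged 8 weeks received it once, intravenously in saline, and kidney cortex was taken 24 h later. Each group held 3 animals: the control rats had saline alone (0 mg/kg), the low group had 150 mg/kg, the middle group 300 mg/kg, and the high group received 600 mg/kg. Total RNA of each animal was hybridised to 1 single-colour array. All rats carried the same strain background, sex and age, and nothing but the dose differed by label.

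Levels are log2 signals relative to the 75th percentile of the array, so that 0 is the brightness of a probe at that percentile, and a difference of 1 is a doubling. A gene was called at a limma adjusted p under 0.05 over the 20760 genes tested, and errors beside log2 changes are limma standard errors. The arrays were alike in brightness, with a median signal between 65.1 and 74.8, with 59.2% to 63.3% of probes well above background and with 0 saturated spots. Checked against the cortex label, 14 of 15 proximal tubule genes were past the filter. Of 7 genes of adrenal and fat, Cyp11b1, Cyp21a1 and Plin1 were well above background on 0 arrays and Cyp11b2 on 2, whereas Star, Adipoq and Fabp4 were on all 12; Adipoq rose at 300 and 600 mg/kg, by 0.36 at 600 mg/kg. The 12 arrays lay on 4 slides. Slide 1 held the 3 controls and low animal 1, slides 2 and 3 each held 1 low and 1 middle animal, and slide 4 held middle animal 3 and the 3 high animals. High and control animals therefore never shared a slide. A fit with slide as a block joins them only through the low and middle animals. High and middle animals share slide 4 only. That fit therefore sets the 3 high animals against middle animal 3 alone, and reaches the controls through that animal. Its median standard error for high against control was 0.154, against 0.0757 without the block.

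Cyp24a1 had the widest swing of the 6 genes. It was at its lowest in the middle group and at its highest in the high group. On the brighter probe the levels were 0.05, −0.26 and −1.34 in control animals 1 to 3, −0.92, −1.09 and −0.98 in low animals, −1.54, −2.0 and −3.48 in middle animals, and 1.13, 1.31 and 1.61 in high animals. All 3 high animals lay above every other animal, and all 3 middle animals lay below every other animal. The low animals lay within the range of the controls, because control animal 3 was as low as a dosed animal. The means were −0.99 ± 0.09 in low, −2.34 ± 1.02 in middle and 1.35 ± 0.24 in high animals, and −0.52 ± 0.73 in controls (SD, n = 3 each).

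Against control, Cyp24a1 thus stood at a log2 change of −0.48 ± 0.46 at 150 mg/kg, −1.82 ± 0.46 at 300 mg/kg (3.54-fold lower) and 1.87 ± 0.46 at 600 mg/kg (3.65-fold higher). Between the high and the middle group the difference was 3.69 ± 0.46, or 12.9-fold. Without middle animal 3, the lowest of all, the change at 300 mg/kg was −1.25. Over all single arrays left out the change at 300 mg/kg ranged from −2.23 to −1.25 and that at 600 mg/kg from 1.46 to 2.15.

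The dimmer probe of Cyp24a1 followed the same course. Its levels were −2.82, −3.78 and −4.79 in middle animals, −0.19, 0.07 and 0.28 in high animals, and −1.32, −1.50 and −2.81 in controls. Its changes were −0.42 ± 0.47, −1.92 ± 0.47 and 1.93 ± 0.47 at the rising doses. Across the 12 arrays the probes had a Pearson correlation of 0.996, as a description of signals that share their arrays and RNA.

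Within slides, where the scan and hybridisation are shared, the Cyp24a1 differences are given as a description. Every middle animal lay below, and every high animal above, all animals of other groups. The directions on slides 2, 3 and 4 were thus fixed beforehand and add no support. On slide 4 the 3 high animals averaged 1.35 and middle animal 3 stood at −3.48, a difference of 4.83. Middle animals lay below the low animal of their own slide by 0.45 on slide 2 and by 1.02 on slide 3. Low animal 1 was 0.40 below the mean of the 3 controls on slide 1. Fitted with slide as a block, the changes against control were −1.13 ± 0.64 at 300 mg/kg and 3.70 ± 0.80 at 600 mg/kg.

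**Figure D1:**
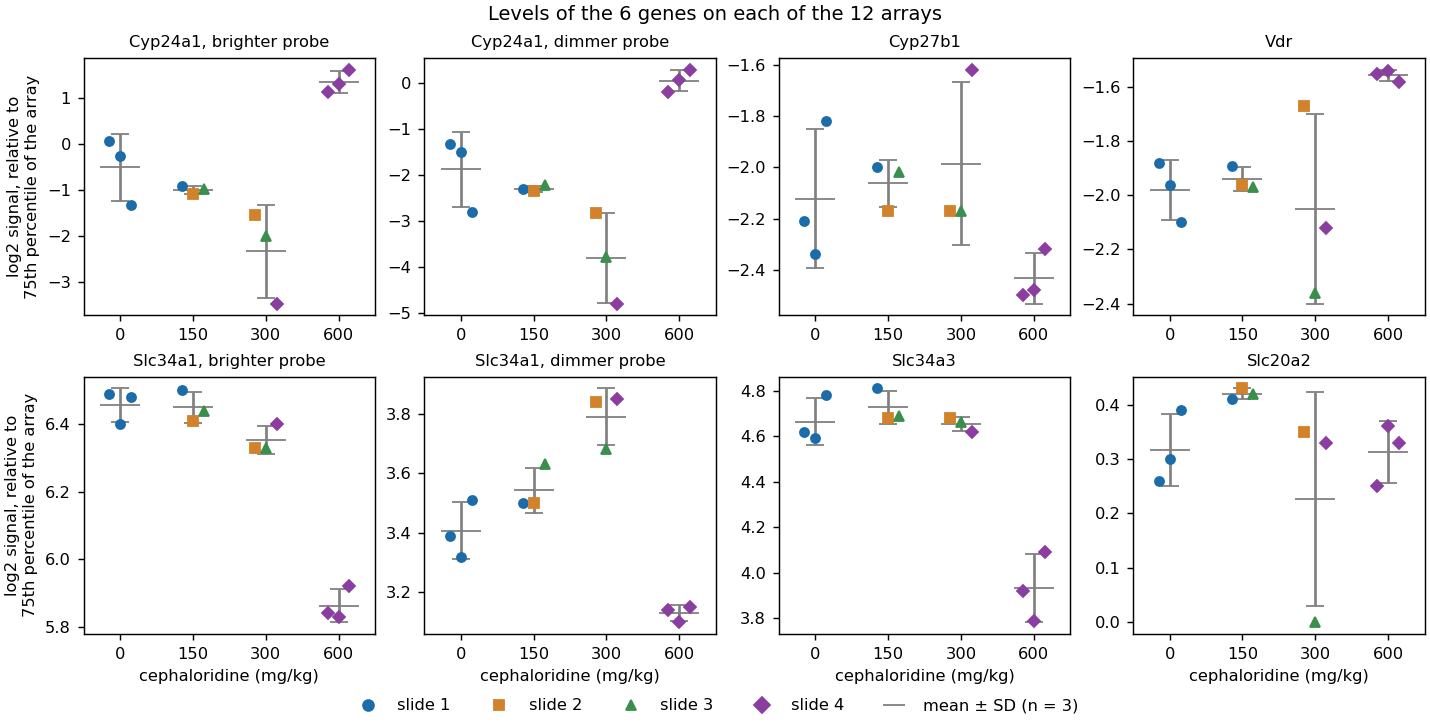
Log2 signal of each of the 8 probes on each of the 12 arrays, relative to the 75th percentile of the array, by dose of cephaloridine; marker shape and colour give the slide, and grey bars the mean and SD of 3 animals. Cyp24a1 is lowest at 300 mg/kg and highest at 600 mg/kg on both probes, both Slc34a1 probes and Slc34a3 are lowest at 600 mg/kg, and Slc20a2 stays between 0.00 and 0.43.

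Cyp27b1, the activating enzyme, moved far less than Cyp24a1, and no dose passed the test against control. Its levels were −2.21, −2.34 and −1.82 in control animals, −2.0, −2.17 and −2.02 in low animals, −2.17, −2.17 and −1.62 in middle animals, and −2.50, −2.48 and −2.32 in high animals. The high animals were the lowest group, and their highest value lay just above the lowest control. The log2 changes against control were 0.06 ± 0.16, 0.14 ± 0.16 and −0.31 ± 0.16 at the rising doses, with adjusted p-values of 0.940, 0.603 and 0.163. The 95% interval at 600 mg/kg ran from −0.66 to 0.05.

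Between the high and the middle group Cyp27b1 differed by −0.44 ± 0.16 (adjusted p = 0.0735), with no overlap between the groups. The slide-blocked difference was −0.81 ± 0.18 (adjusted p = 0.0383); middle animal 3, the highest of all for Cyp27b1, shares slide 4 with the high animals. Without control animal 3 the unblocked difference was called as well (adjusted p = 0.0478), and without middle animal 3 it was −0.26 (adjusted p = 0.185).

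The animals that stood out in their groups for Cyp24a1 stood out in the opposite direction for Cyp27b1. Middle animal 3 had the lowest Cyp24a1 of the 12 (−3.48) and the highest Cyp27b1 (−1.62). Control animal 3 had the lowest Cyp24a1 of the controls (−1.34) and the second highest Cyp27b1 of all animals (−1.82). Taken as deviations from the group means, the 2 genes had a Pearson correlation of −0.82 and a Spearman correlation of −0.60 over the 12 arrays. Without those 2 animals the Pearson correlation was −0.38. The group means behind it still included them, so −0.38 does not measure the relation among the other animals. In the control, low and high groups the remaining animals had the same order for both genes. Middle animals 1 and 2 had equal Cyp27b1 (−2.17). The inverse relation within groups thus rested on control animal 3 and middle animal 3. The pair is 1 of 15 of the 6 genes, and its correlations are given without a p. The points share slides and scaling.

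**Figure D2:**
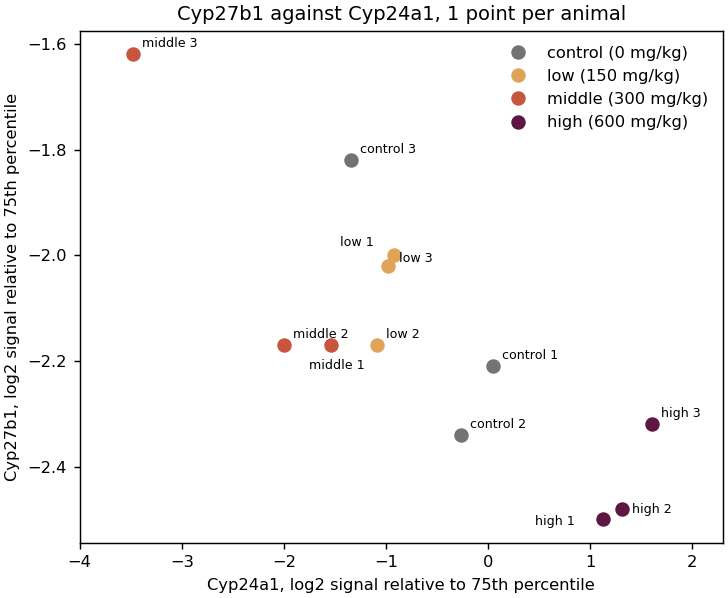
Log2 signal of Cyp27b1 against that of Cyp24a1 (brighter probe), both relative to the 75th percentile of the array, with 1 point per animal coloured by dose group. Middle animal 3 and control animal 3 lie toward low Cyp24a1 and high Cyp27b1, and the 3 high animals lie at the opposite corner.

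Vdr, the calcitriol receptor, was higher in the high group than in the control and middle groups. Its levels were −1.88, −1.96 and −2.10 in control animals, −1.89, −1.96 and −1.97 in low animals, −1.67, −2.36 and −2.12 in middle animals, and −1.55, −1.54 and −1.58 in high animals. The 3 high animals were within 0.04 of each other and above all other animals, whereas middle animal 1 lay close below them. Vdr rose by 0.42 ± 0.14 at 600 mg/kg (1.34-fold, adjusted p = 0.0372) and was 0.49 ± 0.14 higher in the high than in the middle group (adjusted p = 0.0286). The changes at 150 and 300 mg/kg were 0.04 ± 0.14 and −0.07 ± 0.14 and did not pass (adjusted p = 0.957 and 0.772). The rise at 600 mg/kg lay close to the threshold. Its slide-blocked value was 0.60 ± 0.28, not called (adjusted p = 0.260), and leaving out any 1 control or high animal, or low animal 3, also ended the call (adjusted p up to 0.113). The difference from the middle group was 0.56 ± 0.17 when slide-blocked (adjusted p = 0.0817), and it lost its call without middle animal 2 or 3 or without any 1 high animal (adjusted p up to 0.0752), with no filter on dim probes (0.0703) and with only the compared groups in the fit (0.112).

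Slc34a1 encodes NaPi-IIa, the main phosphate carrier of the rodent brush border, and it fell at the high dose on both of its probes. On the brighter probe the levels were 6.49, 6.40 and 6.48 in control animals, 6.50, 6.41 and 6.44 in low animals, 6.33, 6.33 and 6.40 in middle animals, and 5.84, 5.83 and 5.92 in high animals. The 3 high animals lay far below all others, and no group spread by more than 0.09. The fall at 600 mg/kg was −0.59 ± 0.05 (1.5-fold lower, adjusted p = 2.67e-05), and the high group lay −0.49 ± 0.05 from the middle group (adjusted p = 0.000132). Both were called in the slide-blocked fit too, at −0.58 (adjusted p = 0.0455) and −0.53 (adjusted p = 0.00615). The slide-blocked difference from middle sets the 3 high animals against middle animal 3 alone, and that from control runs through the same animal. At 150 mg/kg the change was 0.00 ± 0.05, and at 300 mg/kg it was −0.10 ± 0.05 (adjusted p = 0.174).

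The dimmer Slc34a1 probe, whose array accession is described as a NaPi-2 alpha mRNA, differed from the brighter one at the middle dose. Its levels were 3.39, 3.32 and 3.51 in control animals, 3.5, 3.5 and 3.63 in low animals, 3.84, 3.68 and 3.85 in middle animals, and 3.14, 3.1 and 3.15 in high animals. All 3 middle animals lay above every other animal, and all 3 high animals below. On this probe the signal rose at 300 mg/kg by 0.38 ± 0.06 (1.30-fold, adjusted p = 0.00846 over all probes) and fell at 600 mg/kg by 0.28 on the log2 scale (adjusted p = 0.00837). Over all probes 12.8% were called at 300 mg/kg and 34.1% at 600 mg/kg. The rise was not called with only the compared groups in the fit (0.38, adjusted p = 0.0655). Neither change was called in the slide-blocked fit, at 0.29 and −0.42 (adjusted p = 0.305 and 0.201), while the difference between high and middle, −0.66 ± 0.06, was called with and without the block (adjusted p = 0.00948 and 0.000164), as were 21.7% of all probes without it.

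The gap between the 2 Slc34a1 probes differed between groups in these animals, without passing a test. The dimmer probe minus the brighter one averaged −2.56 in middle animals and −3.05 in controls, a shift of 0.48 with no overlap, and −2.74 in high animals, a shift of 0.31 with no overlap. An exact two-sided permutation test gave p = 0.1 for each, the smallest that 3 animals against 3 allow, so that the test could not pass 0.05, and p = 0.2 for the shift of 0.14 in low animals. The brighter probe reached at most 8.91% of the scanner's saturation level, so its flat course up to 300 mg/kg was measured well below that level. Over the 12 arrays the probes correlated at 0.701. Which transcript forms each probe detects was not tested, since the probe sequences were not used here.

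**Figure D3:**
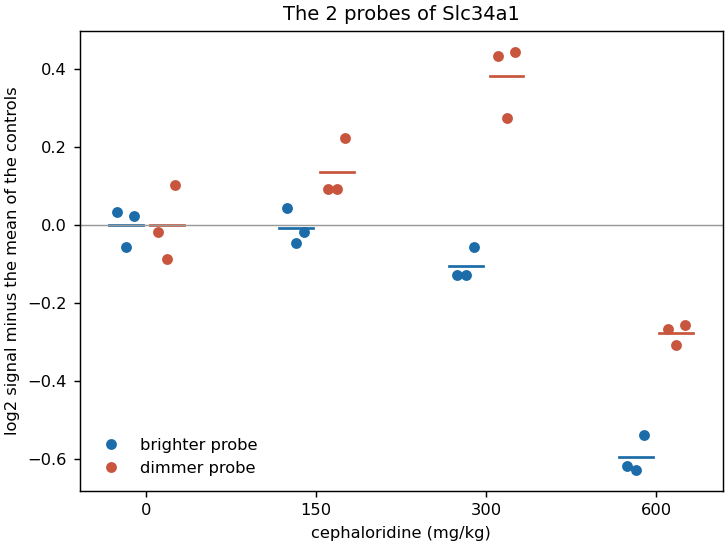
Log2 signal of the 2 Slc34a1 probes in each animal minus that probe's mean over the 3 controls, by dose; points are animals and lines are group means. The dimmer probe lies 0.38 above its control mean at 300 mg/kg, where the brighter probe lies 0.10 below, and both lie below their controls at 600 mg/kg.

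Slc34a3 encodes NaPi-IIc, the second type II carrier of the proximal brush border, and it too fell at the high dose. Its levels were 4.62, 4.59 and 4.78 in control animals, 4.81, 4.68 and 4.69 in low animals, 4.68, 4.66 and 4.62 in middle animals, and 3.92, 3.79 and 4.09 in high animals. The control group overlapped both the low and the middle group. The middle animals lay just below the low animals, with the nearest values both 4.68 after rounding. The high animals lay well below all of them. The fall at 600 mg/kg was −0.73 ± 0.08 (1.66-fold lower, adjusted p = 0.000143), and the high group lay −0.72 ± 0.08 from the middle group (adjusted p = 0.000254). In the slide-blocked fit the difference from middle was still called, at −0.68 ± 0.12 (adjusted p = 0.0188), whereas that from control was −0.56 ± 0.20 and was not called (adjusted p = 0.167). The slide-blocked difference from middle is again taken against middle animal 3 alone. Whether Slc34a3 and Slc34a1 fell by different amounts was not tested.

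The start regions of both falling carriers are shown because they moved together at the high dose. They are the 250 bases before the annotated gene start in RefSeq on GRCr8, read 5′ to 3′ on the gene's strand: chr17:9238984-9239233 for Slc34a1 and chr3:28447998-28448247 for Slc34a3, both on the minus strand. Capitals mark GTTAAT on either strand, core letters of the site of HNF1, a transcription factor of the proximal tubule; this motif was picked after the Slc34a1 sequence had been read.
Slc34a1: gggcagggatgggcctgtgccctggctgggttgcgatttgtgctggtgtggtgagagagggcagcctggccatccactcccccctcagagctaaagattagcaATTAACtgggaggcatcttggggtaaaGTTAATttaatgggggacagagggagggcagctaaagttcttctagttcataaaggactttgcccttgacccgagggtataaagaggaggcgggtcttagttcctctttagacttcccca
Slc34a3: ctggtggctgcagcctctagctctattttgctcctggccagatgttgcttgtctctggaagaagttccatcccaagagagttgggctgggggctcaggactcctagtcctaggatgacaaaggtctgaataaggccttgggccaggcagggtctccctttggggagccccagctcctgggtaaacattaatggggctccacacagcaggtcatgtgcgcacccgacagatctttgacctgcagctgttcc
Slc34a1 held GTTAAT 2 times, on opposite strands, and Slc34a3, Cyp27b1 and Vdr held it 0 times; 7.45% of 33469 rat promoter windows held at least 1. The searched windows held these 250 bases and a stretch past the gene start that is not shown. A direct repeat of nuclear receptor core sites spaced by 3 bases, the type that Vdr binds, was searched on both strands of the same windows. It occurred 0 times in the 4 genes of the set that had a window (Slc34a1, Slc34a3, Cyp27b1 and Vdr) and in 0.350% of all windows. Matches and their absence describe these letters only.

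Slc20a2 encodes PiT-2, a type III phosphate carrier, and passed the test at no dose. Its levels were 0.26, 0.30 and 0.39 in control animals, 0.41, 0.43 and 0.42 in low animals, 0.35, 0.00 and 0.33 in middle animals, and 0.25, 0.36 and 0.33 in high animals. Middle animal 2 was the one low value. The change at 600 mg/kg was 0.00 ± 0.08 with a 95% interval from −0.19 to 0.19. At 150 and 300 mg/kg the changes were 0.10 ± 0.08 and −0.09 ± 0.08 (adjusted p = 0.735 and 0.515).

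Counted over the 5 genes other than Cyp24a1, 0 of 5 were called at 150 mg/kg, where 0.101% of all tested genes were, and 0 of 5 at 300 mg/kg, where 13.0% were (3.57% or 3.42% without control animal 1 or 2). At 600 mg/kg 3 of 5 were called, Vdr higher and Slc34a1 and Slc34a3 lower, against 34.8% of all genes (18.0% higher, 16.8% lower). The same 3 were called in high against middle animals, where 22.5% of all genes were called (9.61% higher, 12.9% lower), and 0 of 5 in middle against low animals, where 0.231% were. In the slide-blocked fit 1 of 5, Slc34a1, was called at 600 mg/kg, where 2.81% of all genes were, and 3 of 5 in high against middle animals, where 9.75% were: Cyp27b1, Slc34a1 and Slc34a3. Groups did not overlap for 1 of 5 at 150 mg/kg (19.8% of all genes), 1 of 5 at 300 mg/kg (32.8%), 3 of 5 at 600 mg/kg (56.1%), 3 of 5 between middle and low (18.6%) and 4 of 5 between high and middle (36.7%). These counts describe the set only. In bulk cortex, fewer cells of a type and less RNA per cell cannot be told apart.

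**Figure D4:**
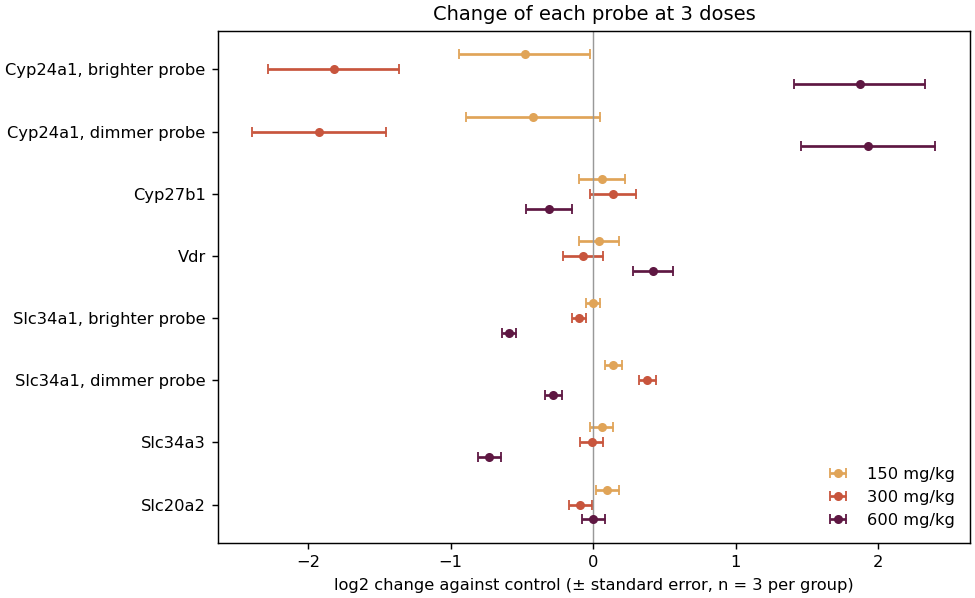
Log2 change of each of the 8 probes against control at 150, 300 and 600 mg/kg, with limma standard errors from 12 arrays. Cyp24a1 changes by −1.82 and 1.87 at the upper doses; the other probes stay within 0.73 of control, and the Slc34a1 probes part at 300 mg/kg.

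Markers of cell types moved at the high dose as well, and their part in these results was not tested. Of 14 proximal tubule markers, 8 fell and 0 rose at 600 mg/kg, among them Slc5a2 (−0.49) and Slc4a4 (−0.71), and 0 were called at 300 mg/kg; over all tested genes 16.8% fell and 18.0% rose at 600 mg/kg and 13.0% were called at 300 mg/kg. Their summed signal was 749.9 to 760.2 in high animals and 916.5 to 945.4 in controls. Fbp1, the brightest of the 14, weighed most in it and was not called (−0.14, adjusted p = 0.0800). Of 9 tested genes of injured tubule, 5 rose, led by Havcr1 (3.19). Lcn2, among the 5, was well above background on 0 control and 3 high arrays. The summed signal of the 9 was 71.1 to 82.4 in high animals and 55.4 to 61.8 in controls. In low animals it was 48.7 to 80.1, which overlapped the high group. Spp1, the brightest of the 9, weighed most in that sum and was not called (0.45, adjusted p = 0.131). Of 9 macrophage genes 4 rose, while their sum overlapped, at 44.4 to 50.9 in high animals and 46.1 to 50.3 in controls. Cd74, the brightest of the 9, weighed most in that sum and was not called (−0.12, adjusted p = 0.290). The overlap of the sums therefore says little of the other genes. Cd163 was well above background on 0 arrays. Of 6 endothelial markers 5 fell, with sums of 44.6 to 46.8 in high animals and 56.3 to 59.2 in controls. Kdr, the brightest of the 6 (−0.35), weighed most in those sums. Slide-blocked, 1 of 14 proximal tubule markers fell at 600 mg/kg, and 1 of 9 injured tubule and 1 of 9 macrophage genes rose. That fit called 0 of 6 endothelial markers and 2.81% of all genes there, and its value for Slc4a4 was −0.09, not called. At 300 mg/kg, where Cyp24a1 was lowest, 0 of the tested genes of injured tubule or macrophages were called. There, 3 of 7 distal tubule and loop and 4 of 9 collecting duct markers rose, and 1 marker each of endothelium and glomerulus fell. S100a9, the only neutrophil gene tested, was called lower as well. It was well above background on 1 control, 0 middle and 3 high arrays, so no fall is read from it. Slide-blocked, 0 genes of these marker lists were called at 300 mg/kg, where 0.217% of all genes were.

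The other genes of vitamin D handling moved in both directions at 600 mg/kg. Of 18 tested genes in a list of 21, 4 rose and 7 fell, where 18.0% of all tested genes rose and 16.8% fell; the median log2 change was −0.156, against −0.002 over all tested genes. Uptake of filtered vitamin D with its binding protein runs through megalin (Lrp2), cubilin (Cubn) and their partners Amn and Dab2, and all 4 fell, by 0.44, 0.41, 0.24 and 0.46 on the log2 scale. Megalin was at 6.10 to 6.24 in high animals and 6.56 to 6.64 in controls, with no overlap, although its slide-blocked value was 0.04 and not called.

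Among the receptor partners of Vdr, Rxra fell by 0.43 on the log2 scale while Rxrg rose by 0.44 ± 0.12 (adjusted p = 0.0143). The corepressor Ncor1 fell by 0.17, the coactivator Ncoa1 fell by 0.18, and the chromatin remodeller Smarca4 rose by 0.17. Of the sterol enzymes, Dhcr7, which uses up the skin precursor of vitamin D to make cholesterol, rose by 0.67 ± 0.09 (1.59-fold, adjusted p = 0.000443), and Cyp27a1, a mitochondrial hydroxylase able to 25-hydroxylate vitamin D, rose by 0.41 ± 0.07. The 25-hydroxylase Cyp2r1 did not pass (−0.22 ± 0.09, adjusted p = 0.0698). The catabolic Cyp3a9, Cyp3a2 and Cyp3a18 were not well above background and were not tested. The smaller changes, of Ncor1, Ncoa1 and Smarca4, were not called on every other probe of those genes.

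At 300 mg/kg, where Cyp24a1 was lowest, 2 of the 18 vitamin D genes reported here rose and 0 fell; over all tested genes 8.21% rose and 4.81% fell. Rxrg rose by 0.85 ± 0.12 (adjusted p = 0.00407), with −0.92 to −0.65 in middle animals and −1.78 to −1.50 in controls, and a second probe gave 0.83; at 600 mg/kg that probe was not called. Cyp27a1 rose by 0.31. At 150 mg/kg 0 of the 18 were called. Slide-blocked, 0 of the 18 were called at either upper dose, where 0.217% and 2.81% of all genes were.

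Phosphate genes beyond the members showed both directions at 600 mg/kg. Of 21 tested genes in a list of 25, 4 rose, near the 18.0% of all tested genes that rose, and 6 fell, where 16.8% of all did; the median was −0.139, against −0.002 over all. The 4 that rose are carriers, while the phosphate exporter Xpr1 (−0.34, adjusted p = 0.0676) and the pyrophosphate transporter Ankh (−0.15, adjusted p = 0.127) did not pass. PiT-1 (Slc20a1), the relative of Slc20a2, rose by 0.55 ± 0.06 (1.47-fold, adjusted p = 0.000103), at 1.84 to 1.89 in high animals and 1.26 to 1.35 in controls, and its second probe gave 0.49. NaPi-IIb (Slc34a2), best known as the intestinal and lung carrier, rose by 0.45 ± 0.11 (adjusted p = 0.0125), but its slide-blocked value was −0.14. Slc17a1 and Slc17a3, first described as phosphate carriers and known for organic anion and urate transport, rose by 0.49 ± 0.08 and 0.45 ± 0.05, and both also rose at 300 mg/kg, by 0.46 and 0.30.

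The 6 that fell were a scaffold, hormone receptors and enzymes. Pdzk1, a scaffold that binds NaPi-IIa in the brush border, fell by 0.32 on the log2 scale. The parathyroid hormone receptor Pth1r fell by 0.43, klotho (Kl), the coreceptor of the phosphate hormone Fgf23, by 0.56, and its receptor partner Fgfr4 by 0.20. Of the same list, Nherf1 (0.07), Nherf2 (−0.13), Ezr (−0.05), Fgfr1 (−0.14) and Fgfr3 (−0.29) were not called. Enpp1 and Alpl, which make and split pyrophosphate, fell by 0.31 and 0.52. Klotho stood at 1.41 to 1.49 in high animals and 1.89 to 2.13 in controls (adjusted p = 0.00384). Fgf23, Phex, Mepe and Sfrp4 were not well above background and were not tested.

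In high against middle animals PiT-1, Pdzk1, Pth1r and Fgfr4 were also called in the slide-blocked fit (adjusted p = 0.00615, 0.0149, 0.0181 and 0.0405), where 9.75% of all genes were. Klotho was not (adjusted p = 0.195). All these slide-blocked differences are taken against middle animal 3 alone. Against control that fit called 1 of the 21, Slc17a1 (0.81, adjusted p = 0.0324).

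Of 11 tested calcium genes in a list of 14, 4 rose and 3 fell at 600 mg/kg, where 18.0% of all tested genes rose and 16.8% fell; the median was 0.197, against −0.002 over all. Both calbindins, calcium-binding proteins long known as vitamin D targets, were called in opposite directions. Calbindin-D28k (Calb1) rose by 0.69 ± 0.15 (adjusted p = 0.00535), at 5.19 to 5.44 in high animals and 4.55 to 4.64 in controls, but 2 of its 4 probes were not called (−0.08 and 0.01). Calbindin-D9k (S100g) fell by 0.58 on the log2 scale (adjusted p = 0.000788), at 0.68 to 0.80 in high animals and 1.24 to 1.41 in controls. The sodium-calcium exchanger Slc8a1 fell by 0.83 on its brightest probe (adjusted p = 0.000290), while its other probes gave −0.17 and −0.23 and were not called.

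The calcium-sensing receptor Casr rose by 0.21, tissue kallikrein Klk1 by 0.25 and the magnesium channel Trpm6 by 0.24, and Pthlh, the parathyroid hormone-related peptide, fell by 0.33. At 300 mg/kg Calb1 (0.52) and Casr (0.29) rose and Slc8a1 fell by 0.41 on the log2 scale. Of all tested genes 8.21% rose and 4.81% fell there. The other probes of Calb1 gave 0.54, which was called, and 0.23 and 0.24, which were not. Those of Slc8a1 gave −0.32 and −0.09 and were not called. The slide-blocked fit called 2 of the 11 at 600 mg/kg, Calb1 and Klk1, where it called 2.81% of all genes. Markers of the distal nephron, where several of these genes are expressed, were higher too, and their part was not tested: 4 of 7 distal tubule and loop markers rose, with sums of 554.5 to 575.7 in high animals and 471.5 to 523.5 in controls, and Pvalb was well above background on 0 arrays. Umod, the brightest of the 7, weighed most in those sums and was not called at 600 mg/kg (0.08, adjusted p = 0.265). Of 9 collecting duct markers 4 rose, with sums of 162.0 to 170.9 in high animals and 151.1 to 157.9 in controls. Hsd11b2, the brightest of the 9, weighed most there and was not called at 600 mg/kg (0.12, adjusted p = 0.161). In middle animals, where 3 and 4 of these markers had risen, the sums were 532.2 to 595.9 and 175.9 to 181.4. Slide-blocked, 0 of the 7 distal tubule and loop and 0 of the 9 collecting duct markers were called at either upper dose.

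**Figure D5:**
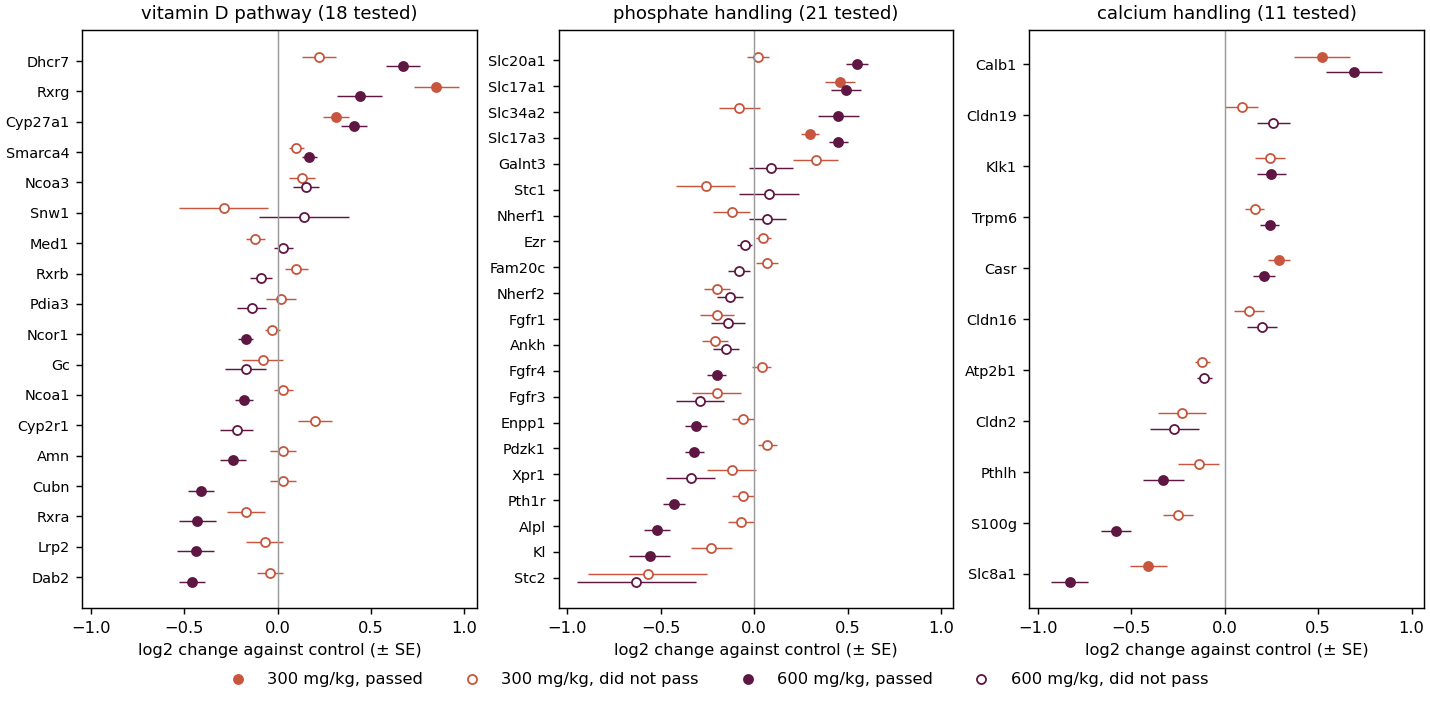
Log2 change against control at 300 and 600 mg/kg of the tested genes of vitamin D, phosphate and calcium handling other than the 6 members, with limma standard errors (n = 3 per group); filled points passed the test. Most filled points belong to 600 mg/kg; at that dose Dhcr7, Slc20a1 and Calb1 lie highest and Dab2, Kl and Slc8a1 lowest among their lists' called genes, and Rxrg lies highest at 300 mg/kg.

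The tested genes whose levels ran most like each member over the 12 arrays were taken from 11006 genes with a reference symbol, by Pearson correlation of log2 levels. For Cyp24a1 they were Sgo2 (0.934), Fgl2 (0.931) and Heatr1 (0.920), and for Vdr Prrc2a (0.927), Rhbdf2 (0.923) and Prkaa1 (0.920). Sgo2 was dim, at −6.17 to −3.89. That range takes in levels at which Lcn2 was not well above background in controls (−5.75 to −5.09). Fgl2 averaged 0.18 in high animals, −0.76 in middle animals and −0.53 in controls, a course with the same turn as Cyp24a1 but a smaller span. Slc34a1 was closest to Fmo1 (0.994), Rdh16 (0.993) and Mpst (0.992), and Slc34a3 to Cesl1 (0.991), Rdh16 (0.988) and Akr1c1 (0.986). Rdh16 averaged −0.40 in high animals and 0.57 in controls. Cyp27b1 was closest to Zswim5 (0.885), Tmed4 (0.875) and Cd99l2 (0.870), and Slc20a2 to Anxa11 (0.953), Eral1 (0.940) and Tanc1 (0.937). These correlations share the dose groups, the slides and the scaling, and describe likeness over these arrays only.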

How the data were processed

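Kidney cortex RNA of 12 rats was measured on 12 single-colour Agilent arrays. Feature Extraction 9.1.3.1 made the signals with local background subtraction, per the file headers; the deposited processed intensity is linear. The authors' deposited table holds a ratio, which equalled the processed signal, floored at 5, over a constant per array (column medians 1.003 to 1.005), and served as an alternative.

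Processed signals were log2-transformed, averaged over unflagged spots of a probe and reduced by the array's 75th percentile. The probe with the highest mean stood for a gene. Genes well above background on all 3 arrays of a group were tested with limma 3.58.1 in R 4.3.3 (1 mean per group, 12 arrays, 8 residual degrees of freedom, two-sided, Benjamini-Hochberg within a comparison). The fit was tested on simulated data. Of the probes, 10735 were named by accession, 5571 by symbol and 3729 by an older symbol; a probe labelled Slc17a2, an older symbol of Slc34a1, was left out because its description names another gene. The number of arrays limits the precision. Named genes were the members, the pathway lists and the 3 genes most like each member. In the vitamin D list 1 gene is not reported here. Members and lists were chosen with earlier results of these data known. Alternatives covered scaling, background, filter, probe choice, samples, blocks, weights and each array left out.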

Additional observations from a re-analysis of the deposited data

How the results depend on the processing

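Of 470 log2 changes of the members recomputed under other settings, 438 kept their direction and, where tested, their side of the threshold. Cyp24a1, among the 470, had no test. With slide as a block 3 of its changes kept their direction but moved in size, and they are not among the 438. The calls of Slc34a1 and Slc34a3 at 600 mg/kg were kept under all settings but slide as a block, which ended that of Slc34a3 (−0.56, adjusted p = 0.167); leaving out 1 array gave −0.62 to −0.57 and −0.81 to −0.66. The Vdr rise at 600 mg/kg ranged from 0.36 to 0.47 with 1 array left out, and lost its call with no filter (adjusted p = 0.0831), with slide as a block (0.260) and as a random block (0.0697). The number of members called at 600 mg/kg was 1 with slide as a block and 2 to 3 with 1 array left out, and 2 to 4 in high against middle animals. The cause of these shifts was not tested, beyond the larger standard error of the slide fit.

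Changes near 0 turned sign. For Slc20a2 at 600 mg/kg the median shift, array weights and the authors' table gave 0.01, 0.01 and 0.02, single arrays left out −0.03 to 0.03, and in high against middle animals slide as a block gave −0.02, single arrays −0.03 to 0.15. At 300 mg/kg it ranged from −0.15 to 0.03 with 1 array left out. For Slc34a1 the mean of both probes gave 0.07 at 150 mg/kg, 0.14 at 300 mg/kg and 0.08 in middle against low animals; at 150 mg/kg scan day, slide and random slide gave 0.01, 0.05 and 0.01, and single arrays −0.03 to 0.02. For Slc34a3 at 300 mg/kg the median shift, the authors' table, slide and random slide gave 0.02, 0.02, 0.12 and 0.01, and single arrays −0.05 to 0.04. For Vdr, scan day gave −0.05 at 150 mg/kg and slide 0.04 at 300 mg/kg, and single arrays gave −0.02 to 0.09, −0.26 to 0.09 and, in middle against low animals, −0.29 to 0.05. For Cyp27b1 slide gave −0.07 in middle against low animals, and single arrays gave −0.05 to 0.21 at 150 mg/kg, −0.04 to 0.29 at 300 mg/kg and −0.10 to 0.17 in middle against low animals.

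Counts of list genes moved as follows. With slide as a block, vitamin D, phosphate and calcium genes that rose at 600 mg/kg numbered 0, 1 and 2, all 3 lists had 0 that fell, and at 300 mg/kg every count was 0. That fit called 2.81% and 0.217% of all genes at these doses. With array weights 10 phosphate and 5 calcium genes fell at 600 mg/kg, where 46.2% of all genes were called, against 34.8% in the main fit. Without the filter 2 calcium genes rose at 600 mg/kg, and at 300 mg/kg 1 vitamin D gene rose and 0 calcium genes rose or fell. Of all genes, 15.7% and 2.52% were then called. With only the compared groups 1 vitamin D, 0 phosphate and 0 calcium genes rose at 300 mg/kg and 0 calcium genes fell, where 1.27% of all genes were called. Quantile normalization, normexp, array weights and random slide each left 1 calcium gene that rose at 300 mg/kg, and random slide and the mean of probes left 0 that fell. These settings called 6.32% to 14.1% of all genes at 300 mg/kg. With 1 array left out the share was 25.7% to 39.5% at 600 mg/kg and 3.42% to 13.1% at 300 mg/kg. With 1 array left out, at 600 mg/kg vitamin D genes that rose and fell numbered 3 to 4 and 5 to 8, phosphate genes 3 to 4 and 5 to 10, and calcium genes 2 to 5 and 2 to 4; at 300 mg/kg the ranges were 1 to 3 and 0 to 0, 2 to 3 and 0 to 2, and 0 to 2 and 0 to 1.

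Replicate numbers did not pair the animals: over 18 same-number pairs, deviations from the group means correlated between −0.23 and 0.12, with 1 over 0.1. With the replicate block 1 calcium gene rose at 300 mg/kg, where 10.4% of all genes were called. Cyp27b1 in high against middle animals was called with it (−0.44, adjusted p = 0.0214), and the numbers of members called did not move past 1.5 times the main count.

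Over all genes, calls at 600 mg/kg numbered 7224 and 584 with slide as a block; at 300 mg/kg they numbered 2704, 45 with that block, 897 without the filter, 264 with only the compared groups, and 741 and 710 without control animal 1 or 2 (3.57% and 3.42% of genes). At 300 mg/kg 63.1% of calls were higher, 73.1% with the median shift and 73.9% with the authors' table.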
